A study of Mus musculus with 6 samples.

Results

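Activator protein 1 (AP-1) and immediate early factors are represented here by 10 mouse genes, Jun, Junb, Jund, Fos, Fosb, Fosl1, Fosl2, Atf3, Maff and Egr1, chosen by symbol from a fixed list out of the 22068 symbols in the deposited tables. The tables hold transcript levels of whole liver from C57BL/6 mice aged 6 weeks, measured by sequencing polyadenylated RNA. The 3 libraries labelled Mst1/2 liver-dKO (dKO below) have the genotype Mst1-/-; Mst2fl/fl; alb-Cre+/+. The 3 control libraries have the genotype Mst1-/-; Mst2fl/fl; alb-Cre-/-. Mice of both groups therefore lack Mst1 in every cell and carry loxP-flanked Mst2, and they differ by a Cre transgene under the albumin promoter, which is active in hepatocytes. The comparison asks how loss of Mst2 in the liver changes transcripts in livers that already lack Mst1. The replicates are numbered, but the labels do not say that each came from a separate animal, and p-values then measure only how these libraries vary, which may be technical.

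AP-1 is a dimer of basic leucine zipper (bZIP) proteins that binds DNA near many genes of growth, stress and repair. A JUN protein pairs with a FOS protein, with another JUN or with an ATF protein, while FOS proteins do not form stable dimers with each other. Many of these genes are immediate early genes, which are transcribed within minutes of a growth factor, cytokine or stress signal without new protein synthesis, usually through MAP kinases and serum response factor. Mst1 and Mst2 sit at the top of the Hippo kinase cascade, whose output holds back the coactivators YAP and TAZ, and AP-1 and the YAP partner TEAD are known to occupy many of the same enhancers. In liver, Jun is known for its role in hepatocyte proliferation after partial hepatectomy. Several of these genes are also induced when tissue is cut, warmed or dissociated.

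The upstream sequences of Jun, Junb, Fos, Fosl2 and Atf3 are shown because these genes rose in dKO liver and a promoter window was at hand for each. They are the 150 bases before the annotated start, on the gene's strand, from RefSeq on GRCm38.p6, a later build than the mm9 of the expression tables, to which they were joined by symbol. Jun lies on the minus strand at chr4:95052223-95052372, Junb on the minus strand at chr8:84978749-84978898 and Fos on the plus strand at chr12:85473740-85473889. Fosl2 lies on the plus strand at chr5:32136322-32136471 and Atf3 on the minus strand at chr1:191183334-191183483. Capitals mark matches to the cAMP response element core TGACG, the TATA box TATAAA or the EGR site GCGNGGGCG on either strand.
Jun: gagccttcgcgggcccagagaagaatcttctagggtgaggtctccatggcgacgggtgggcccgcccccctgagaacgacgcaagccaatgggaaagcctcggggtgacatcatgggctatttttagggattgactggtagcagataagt
Junb: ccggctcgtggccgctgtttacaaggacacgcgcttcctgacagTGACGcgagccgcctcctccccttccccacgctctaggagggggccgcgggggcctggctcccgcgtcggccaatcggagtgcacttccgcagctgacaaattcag
Fos: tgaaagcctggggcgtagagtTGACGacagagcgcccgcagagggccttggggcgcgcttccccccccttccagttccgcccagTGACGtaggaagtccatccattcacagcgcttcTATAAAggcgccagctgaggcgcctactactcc
Fosl2: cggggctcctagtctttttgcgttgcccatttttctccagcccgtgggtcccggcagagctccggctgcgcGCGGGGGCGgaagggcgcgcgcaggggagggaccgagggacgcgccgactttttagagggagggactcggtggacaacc
Atf3: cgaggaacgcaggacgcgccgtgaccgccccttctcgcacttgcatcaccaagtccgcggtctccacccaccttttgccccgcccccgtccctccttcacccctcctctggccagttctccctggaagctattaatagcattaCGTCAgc

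The core TGACG stood 106 bases before the start of Junb, 129 and 66 bases before that of Fos and, read on the other strand, 7 bases before that of Atf3. Over whole windows of 300 bases, 250 before to 50 after the start, 8 of the 10 genes had 1 or more windows, 10 in all. TGACG was found in 6 of these 10 windows, from 5 genes, the others being Fosb and Maff, against 20.8% of all 32851 windows. The members' windows held 46.7% to 68.3% G and C bases, against a median of 52.7% over all windows. Only the window of Jund (46.7%) and 1 window of Maff (50.3%) lay below that median. This lean to G and C was not adjusted for. The CCAAT box CCAAT, which is not in capitals, was found in Jun, Junb and Atf3, against 37.4% of all windows. It lay 65 and 36 bases before the start in Jun and Junb, but after the start and on the other strand in Atf3. TGACG and CCAAT were chosen after the windows had been read. The full element TGACGTCA, which contains the core on both strands, was found in Maff alone, 29 bases before one of its starts, against 1.79% of all windows. The EGR site stood in windows of Fosb, Fosl2 and Maff, against 5.55% of all windows. TATAAA stood in those of Fos and Junb, against 13.6%. In Fos it lay 33 bases before the start, but in Junb it began at the start itself and not upstream. The AP-1 site TGANTCA (7.81% of all windows), the CArG box of serum response factor (1.63%) and the TEAD site GGAATG (14.7%) had no match in the members' windows. Only exact matches were counted, and bases farther upstream were not searched. The Jun sequence above holds TGACATCA, close to the full element TGACGTCA but matched by none of these patterns. The lack of a match therefore does not show that these genes lack such sites. With windows of 200 bases, 150 before to 50 after the start, the member counts were the same and the TGACG share of all windows was 16.6%.

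Values are read as RPKM, read counts scaled by transcript length and library size, which allow levels of different genes to be compared. RPKM summed to between 324034 and 352678 in dKO libraries and to between 364571 and 368246 in control libraries. The spacing of low values gave estimated depths of 21.0 to 24.55 M reads in dKO and 16.95 to 24.8 M reads in control libraries. Among the 11062 genes that averaged 1 RPKM or more, 1965 were called higher and 240 lower in dKO at a limma adjusted p under 0.05, and after median-ratio scaling 873 were called higher and 614 lower. Along the first principal component, with 67.3% of the variance, dKO replicate 3 scored -49, farther out than dKO replicates 1 and 2 with -20.3 and -19.2, and the controls scored 25.4 to 35.7. Stk3, the gene of Mst2, had 5.13, 4.25 and 5.32 RPKM in dKO and 6.00, 5.42 and 5.2 RPKM in control replicates 1, 2 and 3. Stk4, the gene of Mst1, had 5.84, 4.93 and 5.76 RPKM in dKO and 5.50, 4.69 and 4.66 RPKM in control. Neither passed the test (limma adjusted p = 0.424 for Stk3 and 0.487 for Stk4), and as a level over the whole gene does not resolve a deleted part, these values did not check the genotype labels.

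Of the 10 factors, 8 averaged 1 RPKM or more over the 6 libraries and entered the fit over all genes. Jun, Junb, Fos, Fosl2, Atf3 and Egr1 rose in dKO liver, and Jund and Maff did not pass an adjusted p of 0.05. These 6 increases of 8 tested genes stand beside 17.8% of all tested genes called higher, and none of the 8 was called lower, beside 2.17% of all. The 3 dKO libraries lay above the 3 control libraries without overlap for all 8 tested factors, as they did for 38.3% of all tested genes, and none lay below without overlap, as 6.73% of all did. The median change in log2(RPKM + 1), taken as dKO minus control, was 0.97 over the 8 tested factors and 0.23 over all tested genes. That scale understates the change of genes with low levels. Atf3 passed the filter only through dKO, with a mean of 2.94 RPKM there and 0.833 RPKM in control. The counts of 6 and 8 and the median of 0.97 thus rest in part on a gene admitted for being high in dKO. In whole tissue, more cells of a type and more RNA per cell cannot be told apart.

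**Figure D1:**
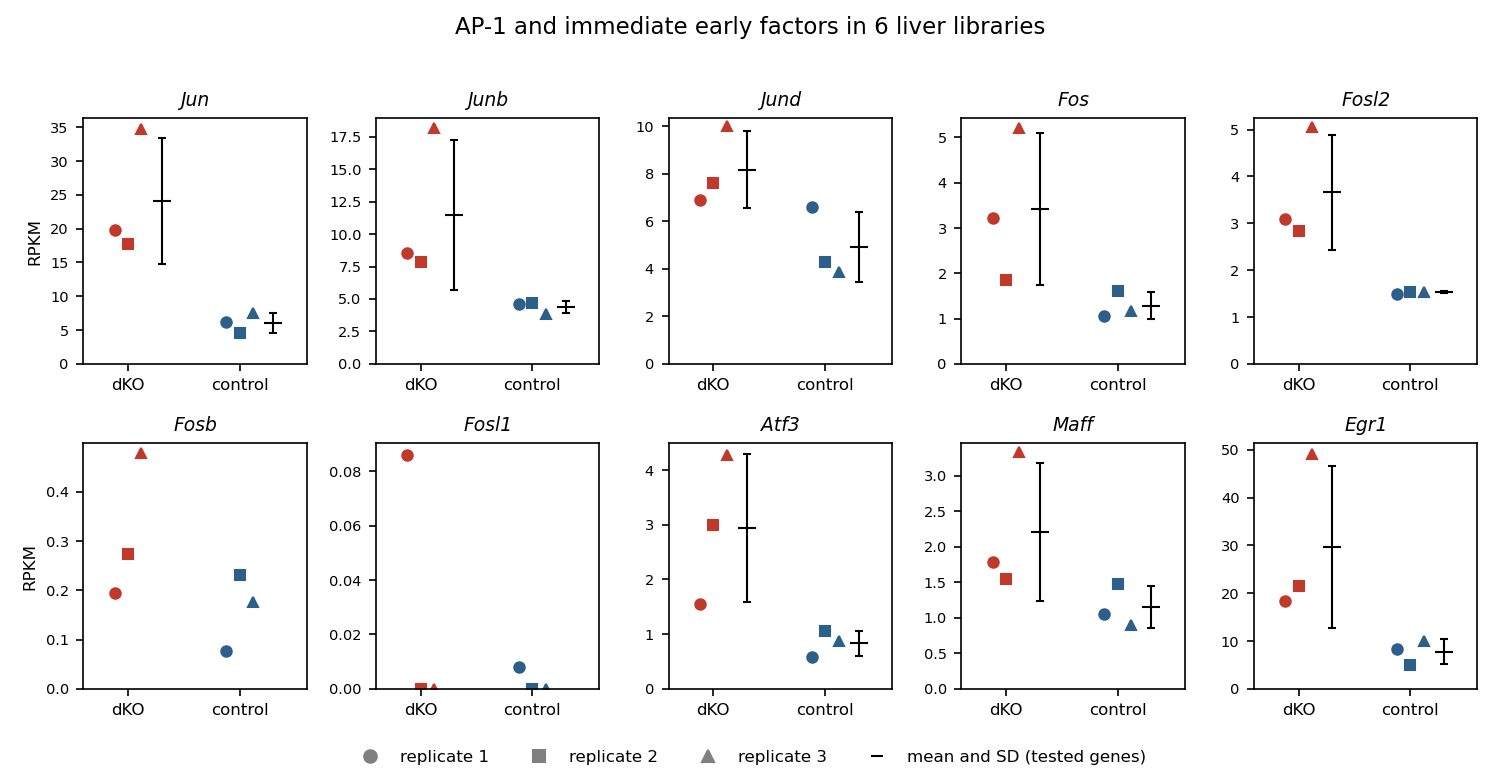
RPKM of each of the 10 factors in the 3 dKO and the 3 control libraries, with the mean and SD (n = 3) beside the points of the 8 tested genes. Each panel has its own linear axis. For the 8 tested genes every dKO point lies above every control point, and dKO replicate 3 is the highest.

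The JUN proteins can form AP-1 alone or with a FOS protein. Jun, which encodes the founding member c-Jun, had 19.8, 17.8 and 34.8 RPKM in dKO replicates 1, 2 and 3 and 6.19, 4.52 and 7.46 RPKM in control replicates 1, 2 and 3. The lowest dKO library held more than the highest control library by a wide margin, and dKO replicate 3 stood above the other dKO libraries. Jun rose 3.99-fold by group means, 24.1 ± 9.30 RPKM in dKO against 6.06 ± 1.48 RPKM in control (SD, n = 3 each). The fitted log2 change of Jun was 1.79 ± 0.26 (SE) at a limma adjusted p of 0.00554, and 1.27% of all tested genes had a larger log2 increase. By the estimated depths and its single annotated transcript, Jun was counted by about 1192 to 2725 reads in dKO and 334 to 490 reads in control libraries.

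Junb, whose product is known as a weaker activator than c-Jun that can restrain it, had 8.57, 7.85 and 18.2 RPKM in dKO and 4.61, 4.67 and 3.81 RPKM in control libraries. The controls lay close together, and dKO replicate 3 held more than 2-fold the level of the other dKO libraries. Junb rose 2.65-fold, to 11.5 ± 5.78 RPKM in dKO against 4.36 ± 0.476 RPKM in control (SD, n = 3 each), with a log2 change of 1.14 ± 0.28 (SE) and a limma adjusted p of 0.0281. Its fold was 1.88 without dKO replicate 3, where the limma adjusted p was 0.0172. The call was lost without control replicate 1, 2 or 3 (limma adjusted p of 0.0845, 0.0511 and 0.0850, in a range of 0.00177 to 0.0850 over 16 alternatives).

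Jund encodes JunD, the family member that resting cells express most steadily. It had 6.89, 7.63 and 10 RPKM in dKO and 6.61, 4.30 and 3.87 RPKM in control libraries. dKO replicate 1 lay close to control replicate 1, so that the groups only just failed to overlap. Its log2 change of 0.64 ± 0.20 (SE) had a limma adjusted p of 0.0529, and without control replicate 1 it was 0.0382 (range 0.00837 to 0.222 over 16 alternatives). Shares of the summed RPKM of the family are given without a test, and they depend on each other. Jun made up 56.1%, 53.5% and 55.2% of the summed RPKM of the JUN family in dKO replicates 1, 2 and 3 and 35.5%, 33.5% and 49.3% in the controls. Jund made up 19.6%, 22.9% and 15.9% in dKO and 38.0%, 31.9% and 25.5% in the controls. Neither share overlapped between the groups, while the share of Junb did, at 23.6% to 28.9% in dKO and 25.2% to 34.6% in control libraries. Control replicate 3 was the control nearest to the dKO libraries in the shares of Jun and Jund. No background was counted for such shares.

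The FOS proteins bind DNA as partners of a JUN protein. Fos, which encodes c-Fos, the textbook immediate early protein, had 3.23, 1.86 and 5.21 RPKM in dKO and 1.05, 1.62 and 1.16 RPKM in control libraries. dKO replicate 2 lay just above control replicate 2, and the dKO libraries were spread widely. Fos rose 2.69-fold, to 3.43 ± 1.68 RPKM in dKO against 1.28 ± 0.30 RPKM in control (SD, n = 3 each), with a log2 change of 0.90 ± 0.27 (SE) and a limma adjusted p of 0.0469. This was the weakest of the 6 calls, and 10 of 16 alternatives ended it, with limma adjusted p from 0.00307 to 0.139. Leaving out 1 library ended it for dKO replicates 1 (0.105) and 3 (0.113) and for control replicates 1 (0.139), 2 (0.0517) and 3 (0.12), as did median-ratio scaling (0.0776).

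Fosl2, which encodes Fra-2, a FOS protein of slower and more lasting induction, had 3.09, 2.83 and 5.06 RPKM in dKO and 1.5, 1.54 and 1.54 RPKM in control libraries. The controls were nearly equal, and each dKO library held clearly more. Fosl2 rose 2.39-fold, to 3.66 ± 1.22 RPKM in dKO against 1.53 ± 0.0200 RPKM in control (SD, n = 3 each), with a log2 change of 0.85 ± 0.19 (SE) and a limma adjusted p of 0.0189. Without control replicate 1 or 3 the limma adjusted p was 0.0629 and 0.0556 (range 0.00179 to 0.0629 over 16 alternatives).

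Fosb and Fosl1, the gene of Fra-1, stayed below the filter. Fosb had 0.194, 0.273 and 0.478 RPKM in dKO and 0.0764, 0.232 and 0.177 RPKM in control libraries, so that the groups overlapped. Without the filter its limma adjusted p was 0.261. Fosl1 was listed at 0.0859 RPKM in dKO replicate 1, at 0.00804 RPKM in control replicate 1 and at traces far below that in the other 4 libraries, and without the filter its limma adjusted p was 0.566. Summed over the FOS family, the libraries held 6.60, 4.96 and 10.7 RPKM in dKO and 2.64, 3.39 and 2.88 RPKM in control. The summed JUN family stood at 5.34, 6.70 and 5.87 times the FOS family in dKO and at 6.60, 3.98 and 5.26 times in control, so that this ratio overlapped between the groups.

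Atf3 encodes a bZIP factor induced by many kinds of stress, which can pair with JUN proteins. It had 1.55, 2.99 and 4.27 RPKM in dKO and 0.584, 1.05 and 0.870 RPKM in control libraries. The dKO libraries spanned a wide range, all above the controls. Atf3 rose 3.53-fold, to 2.94 ± 1.36 RPKM in dKO against 0.833 ± 0.234 RPKM in control (SD, n = 3 each), with a log2 change of 1.05 ± 0.26 (SE) and a limma adjusted p of 0.0270. Its control mean lay below 1 RPKM, so it passed the filter only through dKO. Leaving out dKO replicate 2 or 3 ended the call (limma adjusted p = 0.0629 and 0.0725), and so did leaving out control replicate 1 or 3 (0.0930 and 0.0678), in a range of 0.0116 to 0.0930 over 16 alternatives.

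Maff encodes a small MAF protein, which lacks a transactivation domain and pairs with NRF2 and related bZIP proteins. It had 1.78, 1.54 and 3.33 RPKM in dKO and 1.06, 1.48 and 0.902 RPKM in control libraries. dKO replicate 2 lay just above control replicate 2. The fitted log2 change of Maff, 0.55 ± 0.23 (SE), did not pass (limma adjusted p = 0.111, range 0.0190 to 0.477 over 16 alternatives).

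Egr1 encodes a zinc finger factor that is not part of AP-1 and is induced together with Fos through serum response factor. It was the most abundant of the 10 by group mean in both groups, with 18.4, 21.6 and 49.1 RPKM in dKO and 8.37, 4.96 and 10 RPKM in control libraries. dKO replicate 3 held more than 2-fold the level of either other dKO library, and the groups did not overlap. Egr1 rose 3.81-fold, to 29.7 ± 16.9 RPKM in dKO against 7.79 ± 2.58 RPKM in control (SD, n = 3 each), and 2.57-fold without dKO replicate 3. The fitted log2 change of Egr1, 1.72 ± 0.39 (SE), had a limma adjusted p of 0.0277. The call was lost without control replicate 1 (0.0799) or 2 (0.0596), in a range of 0.00277 to 0.0799 over 16 alternatives. Its paralogs Egr2 and Egr3 were below the filter. Egr2 had 0.308, 0.348 and 1.11 RPKM in dKO and 0.0194, 0.0671 and 0.403 RPKM in control libraries, with overlap. Egr3 had 0.0646, 0.0662 and 0.434 RPKM in dKO and 0.0407, 0.0281 and 0.0337 RPKM in control libraries.

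**Figure D2:**
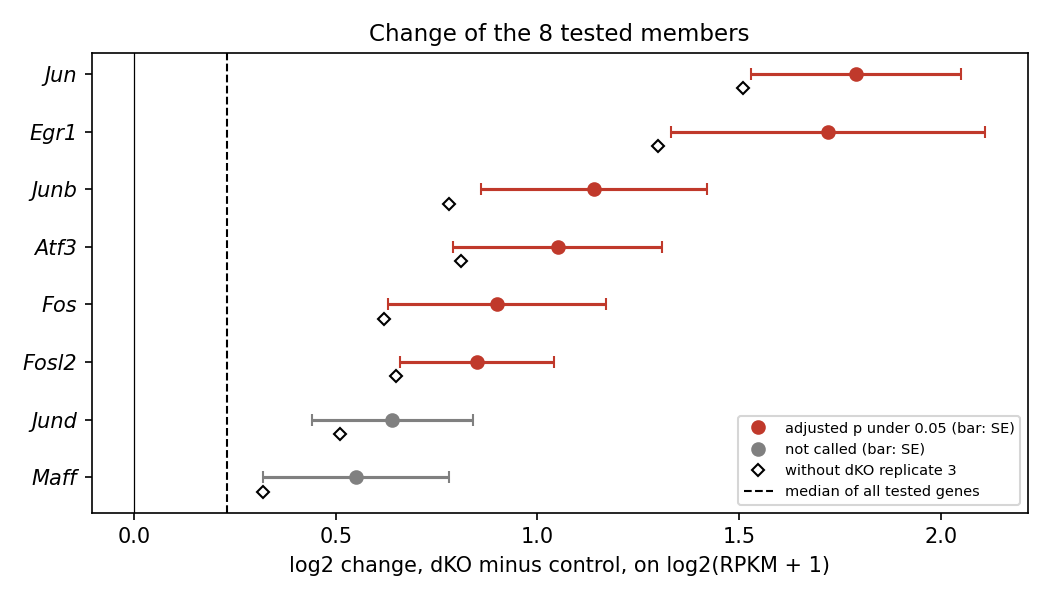
Change in log2(RPKM + 1), taken as dKO minus control, of the 8 tested factors (circles, with SE), and the same without dKO replicate 3 (diamonds). The dashed line is the median of all tested genes, 0.23. All 8 circles and all 8 diamonds lie to its right.

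By group mean the levels ran in dKO from Egr1 (29.7 RPKM) and Jun (24.1 RPKM) through Junb, Jund, Fosl2, Fos, Atf3 and Maff to Fosb and Fosl1. In control livers Jund stood above Junb and Maff above Atf3, and the order was otherwise the same. The ranges of Egr1 and Jun overlapped in both groups, as did those of Junb and Jund, of Fosl2 and Fos, and of Atf3 and Maff. The step between Jund and Fosl2 was clear in every library, at 6.89 to 10 against 2.83 to 5.06 RPKM in dKO and 3.87 to 6.61 against 1.5 to 1.54 RPKM in control.

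The dKO libraries differed among themselves more than the controls did for most of these genes. dKO replicate 3 held the highest level of 9 of the 10 factors, Fosl1 being the exception, and of 52.4% of all tested genes. It held 1.38 (Jund) to 2.46 (Egr1) times the mean of the other dKO libraries among the 8 tested factors. The lowest level of the 8 fell in control replicate 1 for 3 genes, in control replicate 2 for 2 and in control replicate 3 for 3. The standard deviation of log2(RPKM + 1) about the group means had a median of 0.41 over the 8 tested factors and of 0.19 over all tested genes, and all 8 lay above 0.19. It was 0.61 for Egr1, more than that of 97.4% of tested genes, and 0.25 for Fosl2. Without dKO replicate 3, 4 of the 8 factors were called higher, Jun, Junb, Fosl2 and Egr1, beside 9.10% of all tested genes, and the median log2 change was 0.71 over the factors and 0.17 over all.

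Jun kept its call under each of the 16 alternatives to the fit at the same threshold, with a log2 change from 1.43 to 1.97 and a limma adjusted p from 0.000273 to 0.0304. The number of factors called higher depended on the control libraries, being 2 without control replicate 1 (beside 6.84% of all tested genes), 3 without control replicate 2 (17.9%) and 2 without control replicate 3 (8.59%). It was 5 after median-ratio scaling (7.89%), which moved the median log2 change of all tested genes by -0.24, and 5 after upper-quartile scaling (8.13%). It was 3 with no filter (8.48%), 1 after quantile normalization (6.57%), 6 without robust moderation (17.6%) and 8 with sample weights (37.4%). None of the 8 changed its direction under any alternative. As their groups did not overlap, only the scalings and quantile normalization could have changed it.

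**Figure D3:**
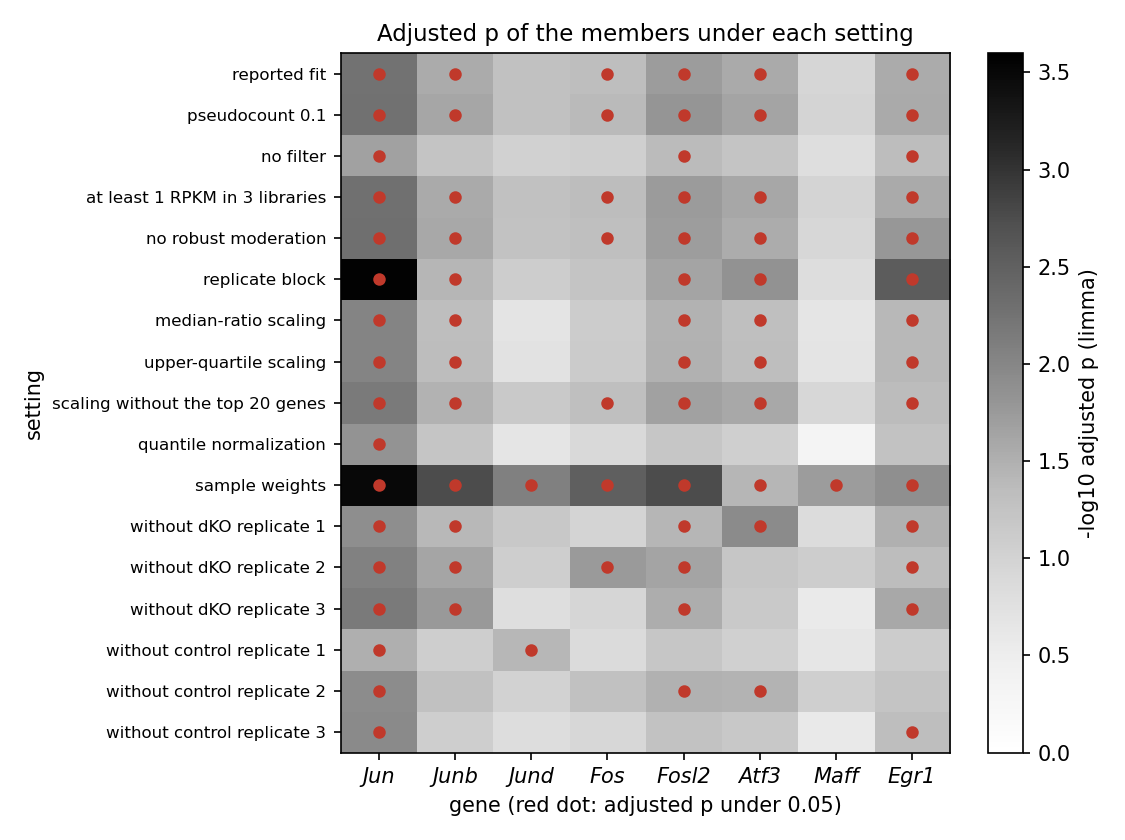
Limma adjusted p, as -log10 in grey, of the 8 tested factors (columns) in the reported fit and under 16 alternatives (rows). A red dot marks an adjusted p under 0.05. Jun has a dot in every row, and Maff has one only with sample weights.

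Genes that work with these factors were described from lists of their partners, inducers, inhibitors and targets. The counts stand beside 17.8% of all tested genes called higher and 2.17% called lower in the reported fit. Of 14 other bZIP factors 11 were tested, 2 rose and 0 fell, with a median log2 change of 0.21. Mafk, another small MAF protein, rose to 8.91 ± 1.33 RPKM in dKO against 3.41 ± 0.982 RPKM in control (limma adjusted p = 0.00644). Jdp2, which encodes a repressor that pairs with JUN proteins, rose to 3.63 ± 1.79 RPKM in dKO against 0.935 ± 0.276 RPKM in control (limma adjusted p = 0.0165). With that control mean, Jdp2 passed the filter only through dKO. Of 22 upstream kinases, serum response factor genes and their partners, 21 were tested, 4 rose and 0 fell, with a median log2 change of 0.25, close to that of all genes. The counts of increases here and among the other bZIP factors lie near the 17.8% of all tested genes. Map3k1, a kinase gene upstream of JNK, rose to 10.7 ± 4.12 RPKM in dKO against 3.18 ± 0.517 RPKM in control (limma adjusted p = 0.00651). The others were Map2k6, a p38 activator, Mkl2, a coactivator of serum response factor, and Mapk3, the gene of ERK1. The limma calls of Map2k6 and Mkl2 were lost without control replicate 1 (adjusted p = 0.0627) and control replicate 3 (0.0635), and that of Mapk3 without any library but dKO replicate 1 (0.0705 to 0.115). Srf itself had 3.69, 3.88 and 5.05 RPKM in dKO and 3.04, 2.28 and 3.22 RPKM in control libraries (limma adjusted p = 0.0893). Without control replicate 1 or 3, 2 of these genes rose, as they did after median-ratio or upper-quartile scaling, where 1 other fell. Of all tested genes 6.84% and 8.59% were called higher without those controls, and 7.89% and 8.13% after those scalings. Under these scalings 2 of the other bZIP factors were called higher and 2 lower.

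Feedback inhibitors of the same pathways showed 0 calls in the reported fit, beside 17.8% of all tested genes called higher and 2.17% lower. Of these inhibitors, 2 were called lower after median-ratio scaling, after upper-quartile scaling or with sample weights and 1 after quantile normalization. With no filter, with sample weights or with a filter of 1 RPKM in 3 libraries, 1 was called higher, beside 8.48%, 37.4% and 18.2% of all tested genes. Of 15 phosphatase, Sprouty, Spred and ubiquitin ligase genes 11 were tested with limma, and at an unadjusted p under 0.05 1 was higher and 2 were lower, with a median log2 change of 0.09. The share of all tested genes at that unadjusted threshold was not counted, so such counts have no background here. Dusp1, a phosphatase of p38 and JNK that is itself an immediate early gene, had 15.8, 19.4 and 18.8 RPKM in dKO and 22.7, 8.21 and 9.17 RPKM in control libraries, where control replicate 1 stood above all others. Dusp6, a phosphatase of ERK, had 15.5, 14.4 and 26.2 RPKM in dKO and 31.4, 28.6 and 22.1 RPKM in control libraries. Neither passed in the reported fit (limma adjusted p = 0.282 for Dusp1 and 0.112 for Dusp6). Dusp6 was called lower after median-ratio scaling (limma adjusted p = 0.0357) or upper-quartile scaling (0.0382), with sample weights (0.0108) and without dKO replicate 3 (0.0282), in a range of 0.0108 to 0.278 over 16 alternatives. Dusp1 was called higher without control replicate 1 (0.0167), in a range of 0.0167 to 0.648. Dusp1 and Dusp6 are named here outside the rule for named genes. When 1 library was left out, 2 feedback genes were called higher without control replicate 1 and 1 without control replicate 2 or 3, and 1 was called lower without dKO replicate 3. The shares of all tested genes called higher without control replicate 1, 2 or 3 were 6.84%, 17.9% and 8.59%. Of the EGR paralogs and their NAB corepressors 2 of 5 were tested with limma, 0 passed, and 0 had an unadjusted p under 0.05.

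Other immediate early genes rose in part. Of 25 listed 21 were tested, 9 rose and 1 fell, with a median log2 change of 0.47. Cyr61, a matricellular gene that is also a target of YAP, rose 7.0-fold, to 27.0 ± 6.5 RPKM in dKO against 3.85 ± 1.33 RPKM in control (limma adjusted p = 0.000945). Gadd45b, a stress response gene, rose 7.46-fold, to 12.8 ± 5.82 RPKM in dKO against 1.72 ± 0.623 RPKM in control (limma adjusted p = 0.00335). Btg2, an antiproliferative gene, rose 3.20-fold (limma adjusted p = 0.00652). Klf6, Mcl1, Myc, Ier5, Rhob and Socs3 also rose, by 1.99-fold (Mcl1) to 2.71-fold (Klf6 and Myc), and Phlda1 fell to 8.75 ± 0.478 RPKM in dKO against 13.9 ± 1.64 RPKM in control. Ier2, Zfp36 and Nr4a1, of the same list, did not pass and are named here outside the rule. Ier2 had 16.5, 18.3 and 22.6 RPKM in dKO and 15.5, 11.1 and 14.0 RPKM in control libraries (limma adjusted p = 0.0726). Zfp36, which encodes an mRNA-destabilising protein, had 43.0, 57.1 and 41.4 RPKM in dKO and 49.6, 36.3 and 44.0 RPKM in control libraries, and Nr4a1, a nuclear receptor gene, had 1.31, 1.06 and 1.69 RPKM in dKO and 0.722, 1.94 and 1.74 RPKM in control libraries. For both the groups overlapped widely. The count of increases was 5 without control replicate 1 (beside 6.84% of all tested genes), 8 without control replicate 2 (17.9%) and 6 without control replicate 3 (8.59%). Leaving out dKO replicate 1, 2 or 3 gave 7, 9 and 6, beside 10.5%, 14.1% and 9.10% of all tested genes. The decrease of Phlda1 was lost without dKO replicate 1 or control replicate 3, and 3 genes fell without control replicate 2. Cyr61, Gadd45b, Btg2, Klf6 and Mcl1 kept their calls whichever library was left out. Leaving out dKO replicate 3 or control replicate 1 ended the calls of Myc, Ier5 and Socs3, leaving out dKO replicate 1 or control replicate 3 those of Ier5 and Socs3, and leaving out any control that of Rhob.

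Of 17 genes known as AP-1 targets 8 were tested, 4 rose and 0 fell, with a median log2 change of 0.75. Spp1, the osteopontin gene, had 454, 306 and 910 RPKM in dKO and 20.9, 18.7 and 64.7 RPKM in control libraries (limma adjusted p = 0.00818). Ccnd1, the cyclin D1 gene, rose to 51.7 ± 1.34 RPKM in dKO against 32.5 ± 3.53 RPKM in control (limma adjusted p = 0.0130). Ccl2, a monocyte chemokine gene, and Timp1, a metalloproteinase inhibitor gene, had limma adjusted p of 0.0356 and 0.0374. The call of Ccnd1 was lost without control replicate 1 or 3, that of Timp1 without any control, and that of Ccl2 without dKO replicate 2 or 3 or control replicate 2 or 3. Timp1 had 2.37, 0.475 and 2.77 RPKM in dKO and 0.0649, 0.0895 and 0.269 RPKM in control libraries. Timp1 and Ccl2 averaged 1.87 and 3.48 RPKM in dKO but 0.141 and 0.856 RPKM in control, so they passed the filter only through dKO. The count of 4 and the median thus rest in part on genes admitted for being high in dKO. Without dKO replicate 1 or 3, Timp1 fell below the filter and was not tested. The collagenase and stromelysin genes Mmp3, Mmp9, Mmp12 and Mmp13, Il6, Lif, Plau and Plaur were among those below the filter. After median-ratio or upper-quartile scaling 1 target was called higher, Spp1, and 1 lower, the limma calls of Ccnd1 (adjusted p = 0.0775 and 0.0682), Ccl2 (0.0677 and 0.0657) and Timp1 (0.0541 under both) being lost. After quantile normalization 2 were called higher and 1 lower, and with sample weights 4 and 1. The shares of all tested genes called higher were 7.89% and 8.13% under the 2 scalings, 6.57% after quantile normalization and 37.4% with sample weights. Without control replicate 3, 1 target was called higher (beside 8.59% of all tested genes), and 2 were without control replicate 1 (6.84%), control replicate 2 (17.9%) or dKO replicate 3 (9.10%). These genes have other regulators too, and a part of the list was already known to differ between these libraries.

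Markers of tissue stress and of other liver cells were measured beside the factors. Of 10 heat shock genes 8 were tested, 1 rose and 0 fell, with a median log2 change of 0.07. Hsp90aa1 rose to 28.2 ± 2.21 RPKM in dKO against 16.9 ± 2.76 RPKM in control (limma adjusted p = 0.0143), a call lost after median-ratio scaling (0.0538) or upper-quartile scaling (0.0509), where no heat shock gene was called. The inducible Hspa1b had 2.10, 0.918 and 1.62 RPKM in dKO and 1.74, 2.15 and 2.07 RPKM in control libraries. The summed heat shock RPKM was 225.5, 233.7 and 209.8 in dKO and 208.3, 222.2 and 212.8 in control replicates 1, 2 and 3. Hspa1b was a small part of these sums. The 10 factors summed to 63.6, 64.3 and 130.5 RPKM in dKO and 30.1, 24.4 and 29.8 RPKM in control. The part of tissue handling in the increases was not tested.

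The marker counts stand beside 17.8% of all tested genes called higher and 2.17% called lower in the reported fit. All 5 tested cholangiocyte markers of 10 rose, Prom1, Sox9, Epcam and Krt19 among them, with a summed RPKM of the 10 markers of 60.3, 54.4 and 103.6 in dKO and 16.7, 19.4 and 23.0 in control libraries. The others, such as Krt7, Cftr, Cldn4 and Muc1, were below the filter. Epcam passed it only through dKO, with a mean of 6.77 RPKM there and 0.359 RPKM in control. The call of Krt19 was lost without dKO replicate 2 or 3 or any control. Of 11 macrophage markers 2 rose, Vsig4 and Lyz2, a share near the 17.8% of all tested genes. The sum of the 11 was 323.7 to 457.5 RPKM in dKO and 194.9 to 411.0 RPKM in control. Without control replicate 2, whose sum was the 411.0 RPKM, 8 macrophage markers rose, and without control replicate 3 1 rose and 1 fell. In those fits 17.9% and 8.59% of all tested genes were called higher. The 10 stellate cell and fibroblast markers had 0 limma calls, with 4 higher and 0 lower at an unadjusted p under 0.05, and summed to 191.3, 192.7 and 329.5 RPKM in dKO and 179.7 to 194.0 RPKM in control, so that dKO replicate 3 stood apart here too. Without dKO replicate 2, 2 of them were called higher, beside 14.1% of all tested genes. The share of all tested genes that were higher at that unadjusted threshold was not counted. It cannot be below the 17.8% called higher at the adjusted threshold. The same limit holds for the unadjusted counts that follow. The 10 endothelial markers had 0 limma calls and 0 at an unadjusted p under 0.05, with sums of 144.3 to 160.0 RPKM in dKO and 130.3 to 140.1 RPKM in control. Of 10 lymphocyte and neutrophil markers 2 were tested, with 0 limma calls and 1 lower at an unadjusted p under 0.05, and the sum was 37.5 to 75.4 RPKM in dKO and 52.8 to 107.8 RPKM in control. Without control replicate 2, 1 of them was called higher, beside 17.9% of all tested genes. Of 10 hepatocyte markers 0 rose and 3 fell (Tat, Ttr and Serpina1a), with 1 decrease without dKO replicate 1, dKO replicate 3, control replicate 1 or control replicate 3, and 2 without dKO replicate 2. Their sum was 45292.6 to 51524.5 RPKM in dKO and 51771.8 to 67589.3 RPKM in control, and all 10, Alb among them, averaged 1 RPKM or more. When 1 library was left out, 90 to 241 of all tested genes were called lower. The part of these cell types in the change of the 10 factors was not tested.

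**Figure D4:**
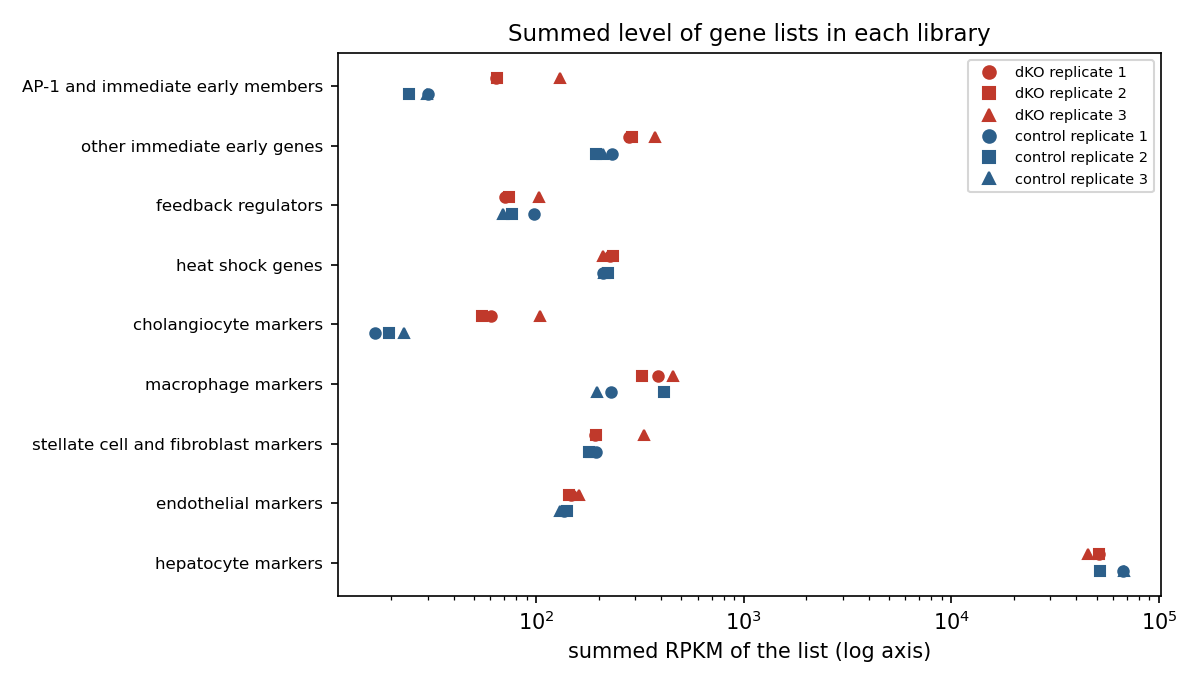
Summed RPKM, on a log axis, of the 10 factors and of 8 other gene lists in each dKO (red) and control (blue) library. The sums of the factors (63.6 to 130.5 in dKO, 24.4 to 30.1 in control) do not overlap between the groups, nor do those of the other immediate early genes and of the cholangiocyte, endothelial and hepatocyte markers, the last of which are lower in dKO. The endothelial sums only just separate (144.3 or more in dKO, 140.1 or less in control). So do the hepatocyte sums (51524.5 or less in dKO, 51771.8 or more in control). Of single tested genes, 38.3% lay higher and 6.73% lower in dKO without overlap. The sums of the feedback and heat shock genes and of the macrophage and stellate cell markers overlap.

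Over the 6 libraries, the mean profile of the 8 tested factors, as log2(RPKM + 1) centred on each gene's own mean, stood at 0.27, 0.27 and 1.08 in dKO and at -0.51, -0.58 and -0.53 in control replicates 1, 2 and 3. The genes closest to it among the other 11054 tested genes, by root mean square distance over the 6 libraries, were Map4k4, Tgif1, Gja1, Fam115a and Plscr3, at 0.056 to 0.075 log2 units. Map4k4, a kinase gene that can act on the Hippo kinases LATS1 and LATS2, had 8.67, 7.57 and 14.5 RPKM in dKO and 4.37, 4.25 and 4.30 RPKM in control libraries. Gja1, the gene of the gap junction protein connexin 43, had 5.01, 4.88 and 9.63 RPKM in dKO and 2.71, 2.08 and 2.23 RPKM in control libraries. Each of the 5 was highest in dKO replicate 3, as were 52.4% of all tested genes. For the 5 this follows from picking genes close to a profile that is highest there. No test was made of this likeness.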

How the data were processed

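Polyadenylated RNA of 6 liver libraries was sequenced, and the authors deposited 1 value per gene symbol and library. The unit is not named in the deposited files and was read as RPKM from the values. Per the submitters' processing notes, reads were placed on mm9; the aligner, counter and annotation are not given in the sources used here. Depth was estimated from 284 to 445 low values per library among 3973 single-transcript symbols, 73.1% to 78.3% of which lay within 0.15 of a whole read, where evenly spread values would give 30%; the spacing was chosen to fit these values.

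After adding 1 RPKM and taking log2, symbols averaging 1 RPKM or more over all libraries were tested; limma 3.58.1 (R 4.3.3) was fitted over the whole table with trend and robust moderation and no block. Calls used a Benjamini-Hochberg adjusted p under 0.05. The fit was tested on simulated data with 1 spread for all genes and balanced changes in both directions. That setting does not cover the wider spread of the factors or the uneven calls seen here. Motifs and figures used Python 3.11.15 and matplotlib 3.10.9.

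The members, lists and alternatives were chosen with earlier results of these data known. Named were the 10 members, up to 3 called genes with the smallest p in each direction per list, and the 5 closest profiles; Mapk3, Timp1, Klf6, Mcl1, Myc, Ier5, Rhob, Socs3, Srf, Dusp1, Dusp6, Ier2, Zfp36, Nr4a1, Hspa1b, Egr2 and Egr3 were added after their values were seen. Coordinates come from RefSeq on GRCm38.p6. Values of a few single list genes are not reported here.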

Additional observations from a re-analysis of the deposited data

How the results depend on the processing

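The direction of the 8 tested factors held under all 18 alternatives. As every dKO library lay above every control library for these genes, only the scalings and quantile normalization could have reversed it. Only Jun kept its call at the 0.05 threshold throughout. Of the 10 factors 6 were called higher in the reported fit, 3 without a filter, 1 after quantile normalization, 1 at an adjusted p under 0.01 and 2 to 5 when 1 library was left out. Over all genes, 1965 higher calls became 873 after median-ratio scaling, 899 after upper-quartile scaling, 727 after quantile normalization, 4133 with sample weights, 490 at an adjusted p under 0.01 and 763 to 1992 when 1 library was left out. The 240 lower calls became 145 without a filter, 614, 561 and 554 under those 3 normalizations, 601 with sample weights, 49 at an adjusted p under 0.01 and 90 to 241 when 1 library was left out. The cause of these shifts was not tested. The median log2 change of all tested genes moved by -0.24 with median-ratio, -0.22 with upper-quartile and -0.27 with quantile normalization.

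The log2 change of Stk4 turned to -0.11, -0.10 and -0.16 under those 3 normalizations. That of Zfp36 (0.12) turned to -0.16 and -0.15 under the first 2 and ranged from -0.02 to 0.22 when 1 library was left out. That of Nr4a1 (-0.04) ranged from -0.28 to 0.11 when 1 library was left out. Stk3 passed the threshold with quantile normalization (limma adjusted p = 0.0475). Adding a replicate block gave 5 factors called higher and ended the call of Fos (limma adjusted p = 0.0584), and calls over all genes were 1513 higher and 202 lower. Same-numbered dKO and control libraries did not deviate together (r of deviations over tested genes -0.0806, -0.101 and -0.00985), so the numbers were not taken as pairs. Quantile normalization ended the calls of Junb, Fosl2, Atf3, Egr1 and Fos, and the lack of a filter those of Junb, Fos and Atf3. Among the lists, the number called higher was within 1.5 times of the reported count for the other immediate early genes in 15 of 18 alternatives and for the AP-1 targets in 10 of 18. The files hold no read counts, so that reads behind a value are estimates, and Fosb and Fosl1 lay too low to be tested.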
